A study of Oryza sativa with 12 samples.

Results

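The genes described here were read in every library of the rice cultivar DZ129 and were at or near 0 in every library of the cultivar W517. They were chosen by measured values. A gene was a member when it had at least 3 FPKM in all 6 DZ129 libraries and at most 0.1 FPKM in all 6 W517 libraries. FPKM are reads scaled to the length of the gene and to a total for the library, which here was close to its reads on genes. The rule found 309 of the 35851 genes in the table, which is 0.862%. They were 2.09% of the 14805 genes with at least 3 FPKM in all 6 DZ129 libraries, called expressed genes below. The same rule with the cultivars exchanged found 74 genes. Since the rule used the difference between the cultivars, that difference is described without a test for the members. Their difference between the tissues of DZ129 was tested, and calls between the cultivars are used below only for other genes that lie near them.

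RNA was sequenced from the pedicel, the stalk that bears the grain, of DZ129, which has lost shattering, and of W517, which shatters easily. Both cultivars are labelled wild type, and all samples were taken on day 10 after flowering by the labels, which the methods call days after heading. The abscission zone (AZ) was a short piece of the pedicel at the base of the grain, and the nonabscission zone (NAZ) was the rest of the pedicel. DZ129AZ, DZ129NAZ, W517AZ and W517NAZ had 3 libraries each, and the sources used here do not say whether these came from separate plants, so that p-values measure the spread between these libraries, which may be technical. The tissue labels were taken as given, and no marker list of the abscission zone was tested.

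Rice cultivars differ from each other in their gene content as well as in their sequence, and many genes of the reference genome are missing or strongly changed in other cultivars. The reads of both cultivars were mapped to 1 reference, MSU-RGAP 7.0, which was made from the japonica cultivar Nipponbare. A gene that a cultivar lacks, a gene whose sequence differs so far that reads no longer map, and a gene that is present but not transcribed all give few or no reads. These 3 cases cannot be told apart in the present data, and their share among the genes was not tested. Locus names of this reference give the chromosome and then a number that rises along it, mostly in steps of 10. The deposited table pairs no locus with a gene name, and none of the 309 loci was found in the reference table used here. No role is given for any of them in the text below.

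The libraries held 17118468 to 20892582 reads on genes, recovered from the steps of the FPKM values. In the 6 W517 libraries the summed level of 15 prolamin and glutelin genes, which encode storage proteins of the grain, was 447 to 491 FPKM in W517AZ and 42.1 to 47.5 FPKM in W517NAZ. It was 1.93 to 3.81 FPKM in DZ129AZ, where 1 of the 15 was at 0 in all libraries, and 1.12 to 1.62 FPKM in DZ129NAZ, where 4 were. None of the 15 genes was a member, and the part of grain RNA in the results below was not tested.

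The members were expressed in DZ129 at lower levels than the other genes that pass the same minimum. Their mean over the 6 DZ129 libraries had a median of 8.44 FPKM, with quartiles of 5.91 and 13.1 FPKM, and ranged from 3.12 to 80.8 FPKM. Over all expressed genes the median was 17.98 FPKM, with quartiles of 9.80 and 34.4 FPKM. A mean of at least 10 FPKM was reached by 121 members (39.2%) and by 11002 expressed genes (74.3%). A mean of at least 20 FPKM was reached by 39 members (12.6%) and by 6690 expressed genes (45.2%). The replicates of DZ129 lay close together. The median coefficient of variation of the members over 3 libraries was 6.36% in DZ129AZ and 5.67% in DZ129NAZ, beside 4.28% and 4.12% over all expressed genes. The limit on W517 is a fixed FPKM value, so that a highly expressed gene passes it only with a lower share of its DZ129 level than a weakly expressed gene needs.

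**Figure D1:**
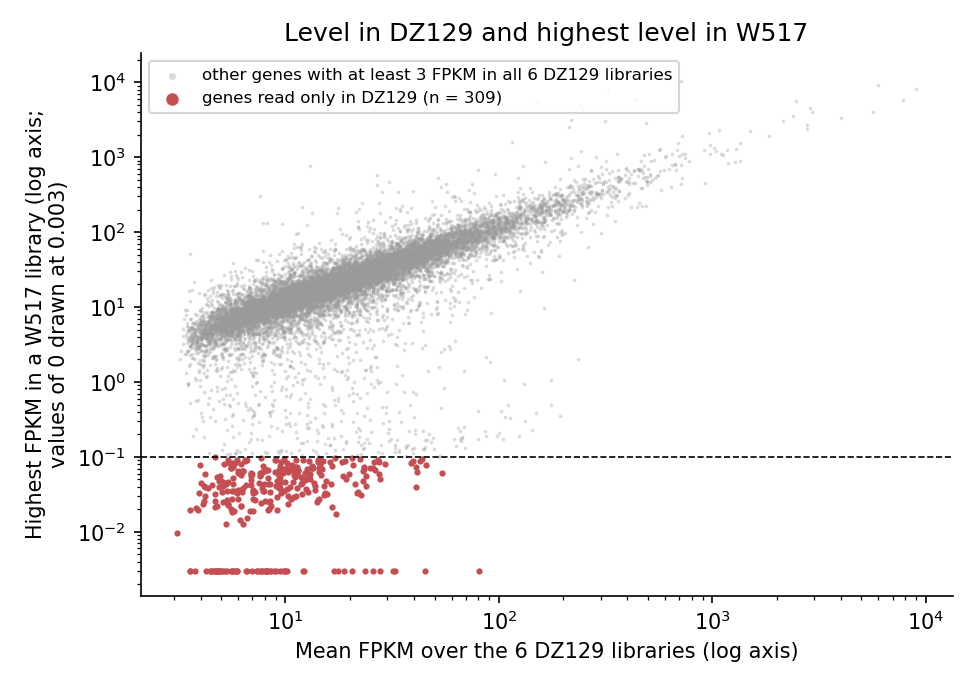
Each point is 1 gene with at least 3 FPKM in all 6 DZ129 libraries, with its mean FPKM over those libraries on the horizontal log axis and its highest FPKM in a W517 library on the vertical log axis, where values of 0 are drawn at 0.003. The 309 genes read only in DZ129 (red) lie below the dashed line at 0.1 FPKM, and 64 of them are at 0; most other genes (grey) form a band of similar levels in both cultivars.

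The gene with the highest level was LOC_Os07g33290, a short gene of 171 bp by the lengths recovered from the FPKM steps. It had 74.5, 66.7 and 64.2 FPKM in the DZ129AZ libraries and 98.0, 91.8 and 89.3 FPKM in the DZ129NAZ libraries. All 3 DZ129NAZ values lay above the DZ129AZ values, and the gene had no read in any W517 library. Against a floor of 3 reads per W517 library, its level was at least 84.8-fold higher in DZ129. LOC_Os02g22580, of 222 bp, was the other gene without a W517 read among the 10 with the highest DZ129 means, with 38.3 to 42.4 FPKM in DZ129AZ and 42.4 to 52.8 FPKM in DZ129NAZ. Its bound was at least 61.2-fold.

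LOC_Os01g35930 had 55.03, 50.9 and 52.1 FPKM in DZ129AZ and 59.1, 51.2 and 57.1 FPKM in DZ129NAZ. The groups overlapped, and in W517 the gene had 1 read in each of 2 AZ libraries and none elsewhere, beside 5510 reads in DZ129. LOC_Os07g26000 had the most DZ129 reads of all members, 12396, at 39.5 to 41.5 FPKM in DZ129AZ and 41.5 to 44.2 FPKM in DZ129NAZ, and 9 reads in W517. LOC_Os03g10700 had 44.8 to 50.8 FPKM in DZ129AZ and 38.1 to 39.6 FPKM in DZ129NAZ, and also 9 reads in W517. In each of these 3 genes the tissues of DZ129 differed by less than 2-fold.

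LOC_Os07g22494 had 30.1, 32.0 and 31.0 FPKM in DZ129AZ and 53.4, 54.3 and 54.3 FPKM in DZ129NAZ. LOC_Os01g52594 had 29.9, 30.1 and 34.0 FPKM in DZ129AZ and 60.3, 60.6 and 58.9 FPKM in DZ129NAZ. In both genes every DZ129NAZ value lay above every DZ129AZ value, while the fold stayed under 2. The other 3 of the 10 highest genes, LOC_Os09g17560, LOC_Os01g02780 and LOC_Os02g35440, were high in 1 tissue and low in the other, and are given with the tissue comparison.

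The W517 libraries were not empty of these genes. Of the 309 members, 64 had no read in any W517 library and 245 had at least 1, with a median of 2 reads over the 6 libraries together. At most 3 reads in every W517 library were found for 273 members, and the highest value in 1 library was 10 reads. In DZ129 the members had a median of 1955 reads over 6 libraries, with a range of 149 to 12396. LOC_Os10g04050 had the most W517 reads, 27, beside 9940 in DZ129. The mean W517 FPKM of a member was at the median 0.118% of its mean DZ129 FPKM, and at most 0.856%. Among the 245 members with a W517 read the median was 0.150%. These are shares of measured values, and 0.856% is no ceiling for the 64 members without a W517 read, whose bounds are given below.

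The members without a W517 read were shorter and had fewer reads in DZ129 than the others. The 64 members without a W517 read had a median length of 670 bp and a median of 747 DZ129 reads, while the other 245 had medians of 2153 bp and 2401 reads. In LOC_Os07g33290 a count of 3 reads in a W517 library would have been 0.953 FPKM, so that the limit of 0.1 FPKM allowed no read at all. Over the 64 genes the lower bound of the fold, against 3 reads per library, had a median of 38.6 and ran from at least 7.70-fold for LOC_Os04g52980 to at least 102-fold for LOC_Os11g34650. Intervals and floors cover counting error only. Across the 309 genes, which are not independent replicates, the W517 reads rose with the DZ129 reads, with a Spearman correlation of 0.771. Both counts share the length of the gene, and the limit of 0.1 FPKM allows more W517 reads in a longer gene. The rule thus sets part of this correlation and of the difference in length, and neither is read as a result.

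Summed over the members, the DZ129AZ libraries held 124013, 115666 and 122952 reads, or 0.622% to 0.627% of the library, and the DZ129NAZ libraries held 144977, 135769 and 141954 reads, or 0.690% to 0.697%. The W517AZ libraries held 156, 325 and 292 reads, and the W517NAZ libraries 117, 134 and 116. W517AZ replicates 2 and 3 stood above the other 4 W517 libraries, with 16.9 and 14.9 RPM (reads on members, scaled to all reads on genes) beside 6.52 to 8.20 RPM. A read was found on 153 and 158 members in these 2 libraries, on 98 in W517AZ replicate 1 and on 78 to 87 in the W517NAZ libraries. Scaled to depth, the W517AZ libraries held 0.131%, 0.271% and 0.239% of the DZ129AZ level, and those of W517NAZ 0.0939% to 0.107% of the DZ129NAZ level. In the opposite direction, the 74 genes read only in W517 had 43 to 68 reads in each DZ129 library beside 22840 to 32121 in each W517 library. The source of these few reads was not tested.

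The limit on W517 set the membership of W517-low genes that are well expressed in DZ129. Besides the 309 members, 145 expressed genes had their highest W517 value above 0.1 and at most 0.3 FPKM. Their DZ129 median was 19.3 FPKM, above that of the members, and their W517 level was at the median 0.274% of their DZ129 level. The share of 114 of them lay within the measured range of the members, up to 0.856%. Of these, 3 genes were named after their values were seen. The most highly expressed was LOC_Os01g27490, with a mean of 278 FPKM in DZ129AZ and 9.16 FPKM in DZ129NAZ and 18 reads over the 6 W517 libraries. LOC_Os10g36260 followed with a DZ129 mean of 125 FPKM and 19 W517 reads. Then came LOC_Os07g43570, with 104 FPKM and 25 W517 reads. Further up, 135 expressed genes had a highest W517 value above 0.3 and at most 1 FPKM and 277 lay above 1 and at most 3 FPKM, while 11138 (75.2%) exceeded 10 FPKM.

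Just inside the DZ129 threshold lay LOC_Os07g45530, LOC_Os04g48484 and LOC_Os11g37490, with lowest values of 3.01, 3.01 and 3.02 FPKM. Just outside it lay LOC_Os02g18690, LOC_Os08g15920 and LOC_Os06g38580, with lowest values of 2.97, 2.95 and 2.95 FPKM. Just inside the W517 limit lay LOC_Os04g33340, whose highest W517 value of 0.0998 FPKM was 1 read, LOC_Os07g33580 with 0.0974 FPKM and LOC_Os08g03020 with 0.0958 FPKM. Just outside it lay LOC_Os11g35710 with 0.10004 FPKM, LOC_Os01g05560 with 0.101 FPKM and LOC_Os05g36994 with 0.101 FPKM.

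The members held more very short and more very long genes than the expressed genes as a whole. The median length was 1838 bp in both sets, but the quartiles were 984 and 2643 bp for the members and 1268 and 2562 bp for the expressed genes. Genes under 500 bp made up 8.09% of the members (25 genes) and 2.50% of the expressed genes. Genes over 4000 bp made up 10.4% (32 genes) and 5.12%. The W517 limit leaves the shortest genes no read, as given above for LOC_Os07g33290. A locus number that is not a multiple of 10, outside the regular numbering of the reference, was carried by 70 members (22.7%) and by 1165 of the 14798 expressed genes on numbered chromosomes (7.87%).

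The members lay on all 12 chromosomes but were most frequent on the last 3. Chromosomes 11 and 12 of rice are known for arrays of disease resistance genes and for a segment that both share, which is given as background only. Chromosome 11 held 45 members, or 6.30% of its expressed genes, chromosome 12 held 32 (4.03%) and chromosome 10 held 28 (3.93%). Together these 3 chromosomes held 105 members (34.0%), which were 4.73% of their 2221 expressed genes. Chromosomes 1 to 9 held the other 204, which were 1.62% of 12577 expressed genes. Among those 9, the share was highest on chromosome 8, with 25 members (2.57%), followed by chromosome 4 with 28 (2.20%) and chromosome 9 with 16 (1.998%). It was lowest on chromosome 2, with 19 members (1.05%), and on chromosome 3, with 24 (1.15%). Chromosome 1 held 33 members, more than any chromosome but 11, but with its 2131 expressed genes the share was 1.55%. These shares are descriptions without a test.

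**Figure D2:**
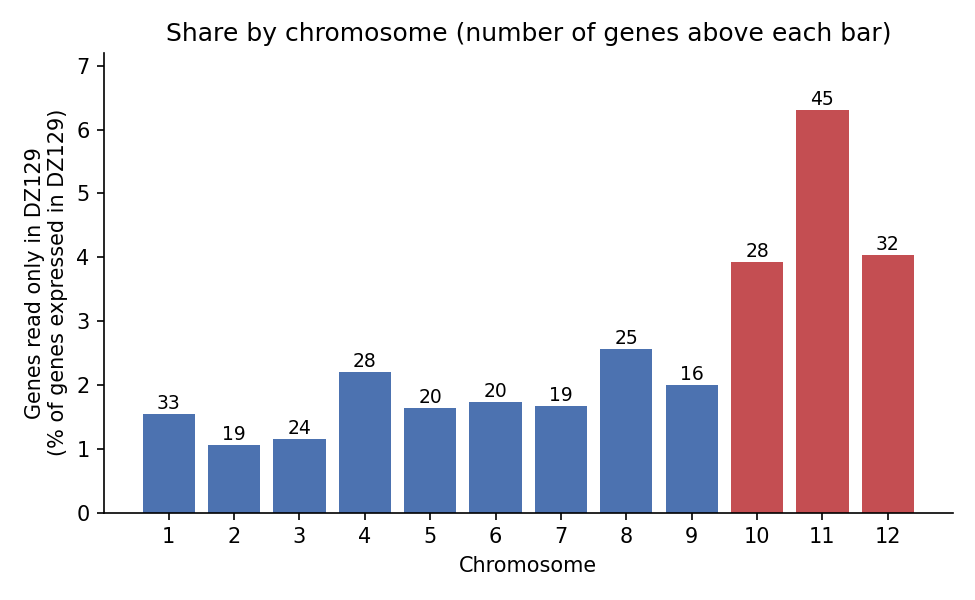
Bars show, for each of the 12 chromosomes, the genes read only in DZ129 as a percentage of the genes with at least 3 FPKM in all 6 DZ129 libraries, with their number above the bar. Chromosomes 10 to 12 (red) lie between 3.93% and 6.30%, and chromosomes 1 to 9 (blue) between 1.05% and 2.57%.

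Along the chromosomes the members were spread over many places. When the locus numbers were cut into stretches of 1000, 213 of the 623 stretches with an expressed gene held a member, and 8 held at least 4, with 35 members in all. Of these 8, 4 lay on chromosome 11, at locus numbers from 31000, 34000, 37000 and 39000, with 5, 5, 4 and 4 members. The others lay on chromosome 12 from 12000, where 5 of 17 expressed genes were members, on chromosome 10 from 29000, with 4 of 13, on chromosome 1 from 6000, with 4 of 22, and on chromosome 8 from 13000, with 4 of 25. Counted by order among the expressed genes, 87 members (28.2%) had another member as their direct neighbour. There were 222 single members, 33 unbroken pairs and 7 unbroken runs of 3.

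Chains of at least 3 members whose locus numbers were at most 100 apart were called clusters. There were 7 clusters, with 22 members (7.12%). LOC_Os12g12110 to LOC_Os12g12190 held 4 members. The other 6 held 3 members each and ran from LOC_Os01g43980 to LOC_Os01g44020, LOC_Os05g46920 to LOC_Os05g46954, LOC_Os06g49920 to LOC_Os06g49940, LOC_Os10g03960 to LOC_Os10g04130, LOC_Os11g31420 to LOC_Os11g31450 and LOC_Os11g34770 to LOC_Os11g34880. In 5 of the 7 clusters every expressed gene between the first and the last locus was a member. The exceptions were the last of these, where 6 other expressed genes reached up to 19.2 FPKM in W517, and the cluster of chromosome 12. W517AZ replicate 2 set this count in part, since 39 members lay in clusters when that library was left out of the rule.

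Within the cluster of chromosome 12, LOC_Os12g12130 had 5.82, 5.88 and 5.58 FPKM in DZ129AZ and 39.3, 39.8 and 38.8 FPKM in DZ129NAZ, and 4 reads in W517. LOC_Os12g12110 had 17.1, 17.6 and 15.9 FPKM in DZ129AZ, 52.4, 44.9 and 47.0 FPKM in DZ129NAZ and no read in W517. LOC_Os12g12115 had 9.12, 8.72 and 9.49 FPKM in DZ129AZ and 15.3, 15.3 and 15.7 FPKM in DZ129NAZ, also without a W517 read. All 3 genes were higher in every DZ129NAZ library than in any DZ129AZ library. LOC_Os12g12190, the weakest of the 4, had 3.30, 3.31 and 3.30 FPKM in DZ129AZ and 4.56, 3.55 and 4.90 FPKM in DZ129NAZ, again without overlap, and 2 reads in W517.

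The loci beside these were named after their values were seen. LOC_Os12g12090 had 30.8, 34.8 and 30.2 FPKM in DZ129AZ and 177, 186 and 180 FPKM in DZ129NAZ, and was kept out of the set by W517AZ replicate 2 alone, where it had 0.345 FPKM. LOC_Os12g12120, between members, had 1 W517 read and failed only the DZ129 minimum, with 0.604 to 1.20 FPKM in DZ129AZ and 4.87 to 5.44 FPKM in DZ129NAZ. LOC_Os12g12170, between LOC_Os12g12130 and LOC_Os12g12190, was read in both cultivars, at 42.5 to 50.9 FPKM in DZ129 and 22.7 to 34.3 FPKM in W517. LOC_Os12g12260, past the cluster, was likewise read in both, at 7.90 to 16.5 FPKM in DZ129 and 8.71 to 13.7 FPKM in W517. The stretch with almost no W517 reads was thus broken by a gene that W517 expressed.

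**Figure D3:**
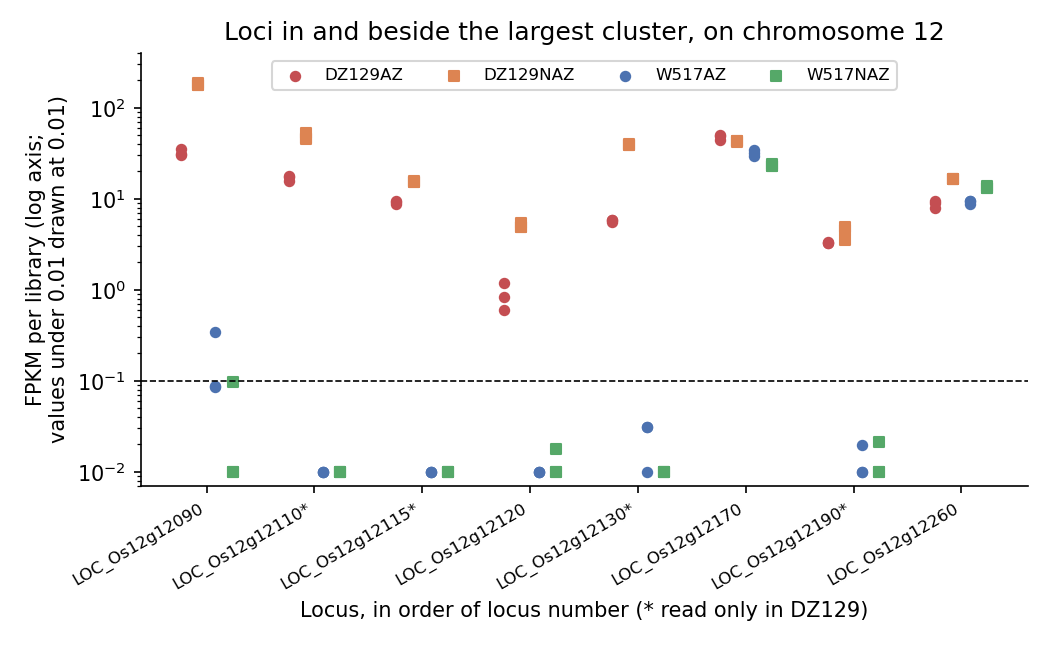
FPKM per library on a log axis for 8 loci in and beside the largest cluster, in order of locus number, with members marked by an asterisk and values under 0.01 drawn at 0.01. DZ129AZ (red) and DZ129NAZ (orange) are above 3 FPKM at every member, W517AZ (blue) and W517NAZ (green) lie under the dashed line at 0.1 FPKM there, and LOC_Os12g12170 is at 22.7 FPKM or more in all 4 groups.

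The first 2 of the 6 clusters with 3 members, in order of chromosome, are described next. In the cluster of chromosome 1, LOC_Os01g43980 had 8.32 to 10.7 FPKM over the 6 DZ129 libraries and LOC_Os01g43990 had 12.1 to 18.4 FPKM. LOC_Os01g44020, without a W517 read, had 12.5, 11.1 and 15.9 FPKM in DZ129AZ and 6.88, 4.32 and 5.67 FPKM in DZ129NAZ. It was the only gene of this cluster that differed by more than 2-fold between the tissues. In the cluster of chromosome 5, LOC_Os05g46920 had 6.06 to 8.01 FPKM, LOC_Os05g46950 had 12.1 to 17.8 FPKM and LOC_Os05g46954 had 22.3 to 26.2 FPKM. All 3 were lower in each DZ129NAZ library than in each DZ129AZ library, by less than 2-fold.

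Genes that were no members but lay next to one were also often lower in W517. The cultivars were compared for this with limma in 1 model of the 4 groups, and a gene was called at a Benjamini-Hochberg adjusted p below 0.05 and a fold above 2. In W517AZ vs. DZ129AZ, 142 of 515 such neighbours were called lower in W517, which is 27.6% (95% Wilson interval 23.9% to 31.6%, counting error only), beside 10.9% of all 14489 expressed genes that were no members. In W517NAZ vs. DZ129NAZ it was 145 of 515, or 28.2% (24.4% to 32.2%), beside 11.9%. Only 2.14% and 2.33% of the neighbours were called higher in W517, beside 2.26% and 2.78% of the expressed non-members. Over all 23951 genes tested, 16.4% and 17.7% were lower and 10.6% and 10% higher. The minimum of 3 FPKM applies to DZ129 alone and so favours genes that are lower in W517, in neighbours and in the other expressed genes alike. The neighbours also include genes that only the W517 limit kept out of the set, such as LOC_Os12g12090 beside LOC_Os12g12110. How many of the neighbours called lower were of this kind was not counted, so the share is not one of genes unlike the members.

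The share fell over the first 4 expressed genes. It was 21.3% in AZ and 20.1% in NAZ for the second expressed gene from a member, 18.1% and 17.8% for the third, and 14.5% and 14.5% at 4 expressed genes. At 10 expressed genes it was 15.6% and 15.1%, and at 20 it was 13.3% and 13.8%. A gene near more than 1 member could count at more than 1 of these distances. The difference was present in both parts of the genome. On chromosomes 10 to 12 the direct neighbours were lower in 30.1% (AZ) and 31.3% (NAZ) of 166 genes, beside 16.1% and 15.9% of all expressed non-members there. On chromosomes 1 to 9 they were lower in 26.4% and 26.6% of 349 genes, beside 10.0% and 11.3%. The contrast is the one by which the members were chosen, and neighbouring genes are not independent of each other, so that no test is given.

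**Figure D4:**
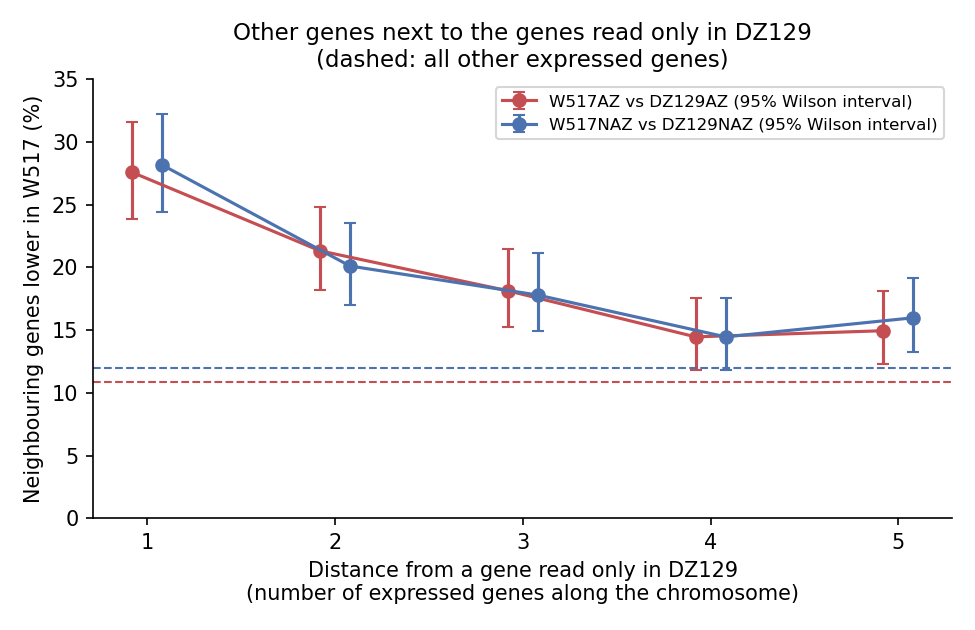
Percentage of expressed non-members called lower in W517 (vertical axis) by their distance from a gene read only in DZ129, counted in expressed genes along the chromosome (horizontal axis), for AZ (red) and NAZ (blue), with 95% Wilson intervals as bars and the value of all expressed non-members as dashed lines. The share is 27.6% and 28.2% at a distance of 1 and 14.5% in both tissues at a distance of 4. A gene can count at more than 1 distance.

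The candidate loci that the study names on chromosomes 1 and 3 lay away from the clusters. No member was found among the 29 expressed genes within 500 locus numbers of LOC_Os01g63180, and 1 of 40 within 500 locus numbers of LOC_Os03g14210. This was LOC_Os03g13976, with 7.61, 7.49 and 6.47 FPKM in DZ129AZ and 8.38, 9.01 and 6.89 FPKM in DZ129NAZ and 2 reads in W517. Its groups overlapped, and it was not called between the tissues (log2 fold change 0.16 ± 0.11 (SE), limma adjusted p = 0.21). Members made up 1.55% of the expressed genes of chromosome 1 and 1.15% of those of chromosome 3. Counts this small near the candidate loci are not read as a result about these loci.

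The comparison of the tissues within DZ129 asks whether these genes, which W517 hardly reads, differ between the abscission zone and the rest of the pedicel. Most did not differ by more than 2-fold. It was tested with limma on log2(FPKM + 0.1) in the 6 DZ129 libraries over 22318 genes, and a call needed a Benjamini-Hochberg adjusted p below 0.05 and a fold above 2. The added 0.1 makes the fold of a low gene too small, and with bulk tissue fewer cells of a type and less RNA per cell cannot be told apart. All 309 members were tested, and 36 (11.7%) were called, beside 27.7% of all genes tested and 15.1% of the expressed genes. Of these, 24 (7.77%) were higher in NAZ and 12 (3.88%) lower. Of all genes tested 10.2% were higher and 17.5% lower, and of the expressed genes 7.72% were higher and 7.34% lower. With quantile normalization, which shifted the median over all genes tested from -0.08 to 0.03 on the log2 scale, 31 members were higher and 9 lower. The calls over all genes tested moved the same way, with 47.1% of 6018 higher in NAZ, beside 36.7% of 6173 without it. Of the calls of members, 77.5% were higher with it and 66.7% without it. The rule keeps out genes that fall under 3 FPKM in either tissue, so that the expressed genes are the nearer background.

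The median log2 fold change in DZ129NAZ vs. DZ129AZ was 0.01 over the members, -0.02 over the expressed genes and -0.08 over all genes tested. In size it was 0.24 at the median over the members and 0.32 over the expressed genes. A log2 fold change within 0.5 of 0 was found for 219 members (70.9%) and for 64.3% of the expressed genes. An adjusted p below 0.05 was reached by 169 members, of which 133 differed by 2-fold or less. The share of all genes tested that reached it is not given here, so this count is not read as a result about the members. The 3 libraries of one tissue lay apart from the 3 of the other in 190 of the 309 members, beside 75.5% of all genes tested and 75.7% of the expressed genes. The groups did not overlap in any of the 36 called members. The largest adjusted p among these was 0.0016.

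The summed reads of the members, scaled to the depth of the library, were higher in all 3 DZ129NAZ libraries than in any DZ129AZ library, as given above, while the median level was similar, at 8.24 FPKM in DZ129AZ and 8.63 FPKM in DZ129NAZ. By chromosome, the called members were few, with 7 of 33 on chromosome 1, 6 of 45 on chromosome 11, 5 of 32 on chromosome 12 and 0 of 20 on chromosome 6. Of the expressed genes, 15.9%, 15.3%, 14.4% and 15.7% were called on these chromosomes. No pattern by chromosome is read from these counts.

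**Figure D5:**
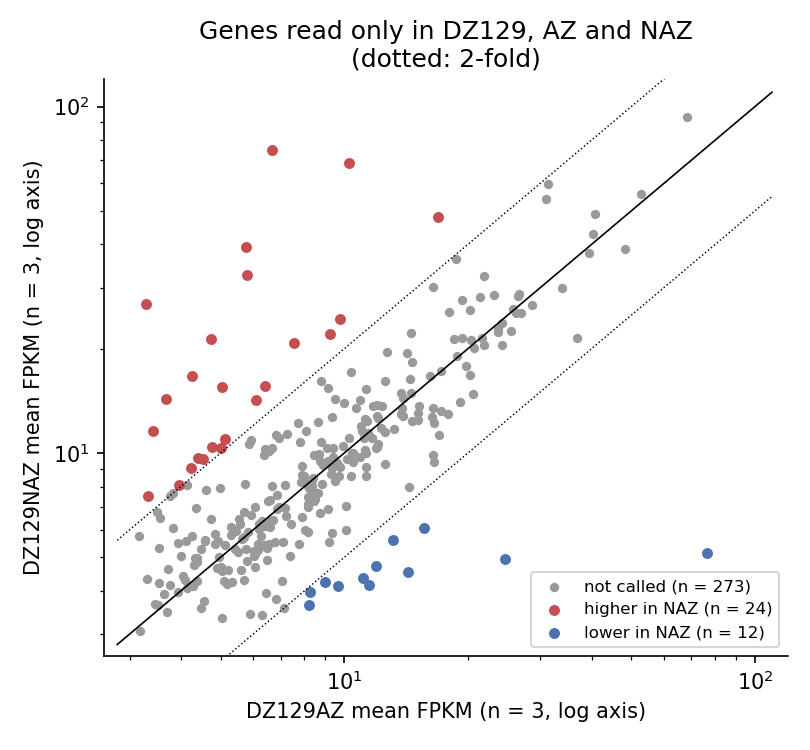
Mean FPKM in DZ129AZ (horizontal log axis) and DZ129NAZ (vertical log axis), n = 3 libraries each, for the 309 genes read only in DZ129, with the line of equality and dotted lines at 2-fold. Of these, 24 are called higher in NAZ (red), 12 lower in NAZ (blue) and 273 are not called (grey).

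Among the genes that were higher in NAZ, LOC_Os01g02780 had 7.52, 6.96 and 5.50 FPKM in DZ129AZ and 77.0, 73.9 and 73.9 FPKM in DZ129NAZ. Its log2 fold change of 3.48 ± 0.10 (SE, limma adjusted p = 1.5e-09) was the highest of all members, and the groups lay about an order of magnitude apart. It had 8 reads in W517, beside 11752 in DZ129. LOC_Os04g19780 had 3.22, 3.39 and 3.25 FPKM in DZ129AZ, close to the minimum of the rule, and 28.8, 27.6 and 24.5 FPKM in DZ129NAZ (log2 fold change 2.996 ± 0.07, limma adjusted p = 7.1e-10). LOC_Os02g35440 had 9.68, 11.1 and 9.95 FPKM in DZ129AZ and 67.2, 74.5 and 65.1 FPKM in DZ129NAZ (2.74 ± 0.07, limma adjusted p = 6.1e-10). Each of these last 2 genes had a single read in W517.

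LOC_Os12g12130 of the cluster on chromosome 12 followed with a log2 fold change of 2.75 ± 0.05 (limma adjusted p = 1.1e-10). LOC_Os01g06876 had 5.71, 6.43 and 5.25 FPKM in DZ129AZ and 32.1, 30.5 and 35.6 FPKM in DZ129NAZ, with a log2 fold change of 2.48 ± 0.08 (limma adjusted p = 5.3e-09). It stood in an unbroken run of 3 members with LOC_Os01g06740, which was also higher in NAZ, at 8.62 to 9.64 FPKM in DZ129AZ and 21.4 to 23.1 FPKM in DZ129NAZ, and with LOC_Os01g06900, which had 5.79 to 5.99 FPKM in DZ129AZ and 3.27 to 3.56 FPKM in DZ129NAZ (log2 fold change -0.76 ± 0.09, limma adjusted p = 3.4e-05, under the 2-fold limit of a call). Members next to each other in the order of the expressed genes thus had tissue differences of opposite sign. LOC_Os11g12000 had 4.46, 4.58 and 5.15 FPKM in DZ129AZ and 21.1, 21.7 and 21.3 FPKM in DZ129NAZ (2.16 ± 0.07, limma adjusted p = 3.4e-09).

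Among the genes that were lower in NAZ, LOC_Os09g17560 stood apart. It had 72.4, 72.9 and 84.2 FPKM in DZ129AZ and 5.34, 5.01 and 5.04 FPKM in DZ129NAZ, with a log2 fold change of -3.87 ± 0.06 (limma adjusted p = 8.9e-11). This was the largest tissue difference of any member in size, and with a DZ129AZ mean of 76.5 ± 6.67 FPKM (SD, n = 3) the gene was the highest member in the abscission zone. W517 held 3 reads on it, 1 in W517AZ and 2 in W517NAZ, beside 7006 in DZ129. LOC_Os11g06980 had 26.2, 24.1 and 23.5 FPKM in DZ129AZ and 4.84, 4.91 and 5.03 FPKM in DZ129NAZ (log2 fold change -2.29 ± 0.06, limma adjusted p = 1.1e-09).

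The other 10 genes that were lower in NAZ had smaller differences, and the median log2 fold change of the 12 was -1.32, beside 1.39 for the 24 that were higher. LOC_Os10g35100 had 12.8 to 15.6 FPKM in DZ129AZ and 4.25 to 4.74 FPKM in DZ129NAZ (-1.62 ± 0.09). LOC_Os05g42060 had 10.8 to 11.96 FPKM in DZ129AZ and 3.78 to 4.37 FPKM in DZ129NAZ (-1.44 ± 0.08). LOC_Os07g23120 had 14.1 to 16.9 FPKM in DZ129AZ and 5.76 to 6.26 FPKM in DZ129NAZ (-1.35 ± 0.08). These genes and LOC_Os03g58730, with 9.80 to 12.6 FPKM and 3.82 to 4.99 FPKM, were called with limma adjusted p of 5.8e-06 or less.

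In the cluster of chromosome 12 the log2 fold change was 1.503 ± 0.06 for LOC_Os12g12110, which was called, 0.75 ± 0.05 for LOC_Os12g12115 and 0.37 ± 0.13 for LOC_Os12g12190, which were not. On chromosome 1, LOC_Os01g44020 was called lower in NAZ at -1.22 ± 0.17 (limma adjusted p = 1.4e-04), while LOC_Os01g43990 had -0.28 ± 0.09 and LOC_Os01g43980 had -0.17 ± 0.08. On chromosome 5 the values ran from -0.36 ± 0.09 for LOC_Os05g46950 to -0.17 ± 0.05 for LOC_Os05g46954, and no gene was called. Of the 10 genes with the highest DZ129 means, 7 were not called. LOC_Os01g52594 was nearest to a call, with a log2 fold change of 0.93 ± 0.05 (limma adjusted p = 1.3e-07) that reached 1.02 under median-ratio scaling.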

How the data were processed

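RNA-seq libraries of DZ129AZ, DZ129NAZ, W517AZ and W517NAZ (3 each) were used. The authors trimmed reads with Trimmomatic, mapped them to MSU-RGAP 7.0 with HISAT2, computed FPKM with Cufflinks and counted reads with HTSeq; versions are not given in the sources used here. The kit was stranded, but the strand setting of the counting and the handling of reads that fit more than 1 gene were not stated. Overlapping or antisense genes may thus share reads, and near-identical copies may split or lose theirs. The authors deposited FPKM for 35851 genes, 1 column per library. The members and lists were chosen with earlier results of these data known.

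Whole reads were recovered from the FPKM steps for 100% of genes (tolerance 0.0002 reads, lengths of 150 to 20000 bp allowed), which gave depth, gene lengths and W517 floors of 3 reads. For DZ129NAZ vs. DZ129AZ, limma 3.58.1 (trend, R 4.3.3) was run on log2(FPKM + 0.1) of genes that reached 0.5 FPKM in 3 or more of the 6 DZ129 libraries. W517 was left out of this fit because the members lie at its floor. W517 and DZ129 were compared for neighbouring genes in a 12-library model. Called genes had a Benjamini-Hochberg adjusted p below 0.05 and a fold above 2. Only the procedure for DZ129NAZ vs. DZ129AZ was tested on simulated data, with fold changes set in well-read genes. The 12-library model was not tested in this way.

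Genes named are the 10 highest members, the 6 highest and 6 lowest called fold changes, the members of 3 clusters (the one with 4 members and, of the 6 tied at 3, the first 2 by chromosome), those next to the thresholds and those near the candidate loci. Other genes, given as extremes of a range or as neighbours, were chosen after their values were seen. The 15 storage protein genes come from a table that the study made on these samples. Alternatives were other thresholds, pseudocounts, filters, scalings, a replicate block, limma voom on recovered reads and leaving out libraries. No sequences are printed. Other steps used matplotlib 3.10.9, pandas 2.3.3, numpy 2.4.6 and scipy 1.17.1 under Python 3.11.15.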

Additional observations from a re-analysis of the deposited data

How the results depend on the processing

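The number of members moved with the rule, to 527 at a minimum of 1 FPKM in DZ129, 82 at 10 FPKM, 64 at 0 FPKM in W517 and 499 from the NAZ libraries alone. Leaving out 1 library gave 309 to 337. Since every library must pass the rule, leaving 1 out can only keep or add members, in clusters as well. Members in clusters, 22 in all, were 83, 3, 0 and 87 under those rules, 62 with up to 0.3 FPKM in W517, 38 with up to 200 locus numbers between neighbours, 64 with a W517 mean of up to 1% of the DZ129 mean (chosen after seeing the data), and 22 to 39 with 1 library left out, where 39 was without W517AZ replicate 2. Members called between the DZ129 tissues numbered 27 (pseudocount 1) to 40 (median-ratio scaling and quantile normalization) beside 36, and 34 to 39 with 1 DZ129 library left out. Over all genes tested, 4383 were called with pseudocount 1, 6162 with median-ratio scaling and 6018 with quantile normalization, beside 6173. With 1 DZ129 library left out, 6118 to 6188 of all genes tested were called. Leaving out 1 library, 21 to 26 members were higher in NAZ and 11 to 13 lower. With no library left out, 10.2% of all genes tested were higher and 17.5% lower, and 7.72% and 7.34% of the expressed genes. Such shares are not given for the fits with 1 library left out, so the directions are not compared there. Of neighbours, 26.8% to 28.0% (AZ) and 27.8% to 28.7% (NAZ) were lower in W517 with 1 library left out, and with quantile normalization 24.1% in NAZ, beside 9.07% of all expressed non-members. Of the members named by rule, 2 that lie just inside the DZ129 minimum and were not called changed sign: LOC_Os07g45530 went from -0.05 to 0.033 with median-ratio scaling and 0.28 with quantile normalization, and LOC_Os04g48484 went from 0.04 to -0.06 without DZ129AZ replicate 1 and -0.13 without DZ129NAZ replicate 1 (range -0.13 to 0.17 with 1 library left out). LOC_Os01g52594 passed the fold threshold with median-ratio scaling, and the other calls of these members kept their side of it. The cause of these changes was not tested. With the replicate number as a replicate block, 36 members were called, and 6191 of all genes tested beside 6173; same-numbered libraries did not deviate together (r of 0.00027, 0.024 and -0.027 over 22318 genes), so the numbers were not taken as pairs, and the block changed no call of the members named by rule. Depth limits W517: a count of 0 in a library was taken to allow a level of up to 3 reads.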
